A study of Saccharomyces cerevisiae with 10 samples.

Results

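Protein-bound clusters inside the introns of protein-coding genes of budding yeast are described here across 4 lists of gPAR-CLIP clusters. A cluster was counted where its midpoint lay, on the same strand, in an intron between 2 coding (CDS) blocks of a nuclear protein-coding gene of build R64, and clusters that touched a snoRNA gene inside an intron were left out. By this rule 1849 of the 184890 clusters in the 4 lists were intronic. They numbered 599 of 61035 in the log-phase polyA list, 307 of 33345 in the glucose-starved polyA list, 418 of 38936 in the nitrogen-starved polyA list and 525 of 51574 in the light total RNA list. None of the 115 clusters of the heavy fraction of total RNA lay in an intron. In shares of each list, intron clusters made up 0.981% in log-phase polyA (95% Wilson interval 0.906 to 1.06%), 0.921% after glucose starvation (0.824 to 1.03%), 1.07% after nitrogen starvation (0.976 to 1.18%) and 1.02% in light total RNA (0.935 to 1.11%). The 4 intervals overlapped.

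gPAR-CLIP records the sites at which any protein crosslinks to RNA: cells take up 4-thiouracil, which ultraviolet light at 365 nm joins to nearby protein, and the clusters are stretches of RNA kept with the crosslinked protein. All cells were the haploid strain WT BY4742, which carries deletions at HIS3, LEU2, LYS2 and URA3, grown in synthetic defined (SD) medium with 200 µM 4-thiouracil. The log-phase cells stayed in SD, while the starved cells spent 2 h in SD without glucose or in SD without nitrogen. The light fraction is the part of a sucrose gradient lighter than the small ribosomal subunit; polyA RNA was taken from it on oligo(dT) beads in log phase and in both starvations, and total RNA in log phase. Each group had 2 replicate libraries, which the authors pooled into 1 list, so every interval given here covers counting error and no difference between groups could be set against the spread between replicates. A list can hold more clusters of a transcript because more of that RNA was present or because more of it was bound, and these cannot be told apart in pooled cell material.

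Introns are removed from pre-mRNA by the spliceosome. In budding yeast the U1 snRNP first pairs with the 5′ splice site, which usually reads GTATGT; the branch site, usually TACTAAC, is bound by the branch point binding protein Msl5 with Mud2 and then pairs with the U2 snRNP; and the intron ends in an AG at the 3′ splice site. Few yeast genes have an intron, and the cytosolic ribosomal protein genes make up a large part of them. The annotation held 281 introns between CDS blocks, in 271 genes, 10 of which had 2 introns. Their lengths ran from 49 to 1002 nt with a median of 141 nt. The 90 introns of ribosomal protein genes had a median of 408.5 nt and the 191 others a median of 97 nt. GTATGT stood at the 5′ end of 205 introns (73.0%), TACTAAC marked the branch site of 232 (82.6%), a 7-mer 1 mismatch away with the branch A kept marked 45 more, and 4 had neither. Placed by this match of letters, the branch A lay a median of 33 nt before the 3′ splice site, with a range from 10 to 323 nt. Branch points were not measured, and the HAC1 intron, which the spliceosome does not remove, counts among the 45.

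At least 1 cluster was found in 209 of the 281 introns in log-phase polyA, 143 after glucose starvation, 179 after nitrogen starvation and 169 in light total RNA. In all, 224 introns held a cluster in some list, 122 in all 4 lists and 33 in exactly 1. The clusters were short, with a median width of 10 nt in each polyA list and 12 nt in light total RNA. The 12 introns with the most clusters held 17.5% of them. On the opposite strand, the same introns held 47, 14, 26 and 8 clusters, in the order log phase, glucose, nitrogen and total that is kept below.

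The sequences show where within an intron the clusters lie. The 4 introns under 150 nt with the largest covered length are short enough to be read whole. They are printed 5′ to 3′ from the R64 reference, with capitals for the nt that clusters of at least 2 of the 4 lists covered.
CMC4 (chrXIII:652776-652847, - strand): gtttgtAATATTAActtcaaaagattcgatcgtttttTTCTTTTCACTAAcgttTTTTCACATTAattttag
SRC1 (chrXIII:211445-211570, + strand): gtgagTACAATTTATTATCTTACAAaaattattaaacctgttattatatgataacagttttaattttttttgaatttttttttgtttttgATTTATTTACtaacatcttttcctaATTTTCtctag
YPR170W-B (chrXVI:883388-883486, + strand): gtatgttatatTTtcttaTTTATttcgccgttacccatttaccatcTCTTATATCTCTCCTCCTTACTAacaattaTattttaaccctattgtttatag
VMA9, first intron (chrIII:107034-107110, + strand): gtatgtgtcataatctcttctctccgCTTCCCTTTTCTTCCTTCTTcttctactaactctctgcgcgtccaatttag
CMC4 encodes a protein of the mitochondrial intermembrane space, SRC1 an inner nuclear membrane protein whose transcript is spliced at alternative 5′ sites, and VMA9 a subunit of the vacuolar ATPase. In CMC4 the capitals take in the first 6 letters of the branch site cactaac, in SRC1 and YPR170W-B the first letters of tactaac, and in VMA9 a pyrimidine run upstream of the branch site. Neither the first 5 nt nor the last 3 nt of any of these introns was covered in 2 lists.

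The last 60 nt of 8 of the 12 introns with the most clusters are printed in the same way, because this stretch holds the branch site or lies beside it.
YRA1 (chrIV:1237549-1237608, + strand): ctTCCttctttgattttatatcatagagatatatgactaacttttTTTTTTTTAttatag
RPL28 (chrVII:311467-311526, + strand): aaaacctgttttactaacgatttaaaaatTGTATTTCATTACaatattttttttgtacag
RPS14B (chrX:74145-74204, + strand): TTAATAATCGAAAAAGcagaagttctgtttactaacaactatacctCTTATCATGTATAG
RPS13 (chrIV:579958-580017, + strand): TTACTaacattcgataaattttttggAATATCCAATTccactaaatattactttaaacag
RPS30B (chrXV:678380-678439, - strand): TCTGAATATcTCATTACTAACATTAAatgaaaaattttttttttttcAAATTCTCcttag
ECM33 (chrII:393451-393510, + strand): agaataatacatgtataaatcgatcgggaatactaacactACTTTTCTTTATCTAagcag
RPS22B (chrXII:856998-857057, + strand): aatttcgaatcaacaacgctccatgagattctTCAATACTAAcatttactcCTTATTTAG
RPL7A, first intron (chrVII:365527-365586, - strand): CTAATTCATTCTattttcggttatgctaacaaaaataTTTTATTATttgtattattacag
RPS30B was covered over the whole branch site, RPS22B and RPS13 over its first letters, and YRA1, RPL28, ECM33 and RPL7A between the branch site and the 3′ splice site. In RPS14B the branch site was bare, while a stretch upstream of it and the end of the intron, the AG included, were covered. The end of the RPS22B intron was covered as well, its AG included. RPS13 and RPS30B also had capitals downstream of the branch site, and YRA1, RPS30B and RPL7A had some upstream of it. The 8 printed are not the 8 with the most clusters. Among those of the 12 not printed here, RPS9A and GCR1 had no nt in their last 60 that 2 lists covered. In DBP2 only the last 8 nt were covered in 2 lists, and its branch site was bare. HAC1 is printed whole below.

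Around the branch site, intron clusters of the polyA lists lay more densely than elsewhere in the intron. Within 10 nt of the branch A fell 128 of 599 clusters in log-phase polyA, 21.4% (18.3 to 24.8%), where this window holds 8.92% of intron nt and 9.52% of intron T, the base at which 4-thiouracil is built in. After glucose starvation the share was 22.1% (17.9 to 27.1%) and after nitrogen starvation 23.0% (19.2 to 27.2%). With all introns pooled, the share in light total RNA was 10.7% (8.31 to 13.6%), an interval that takes in the share of nt. The log-phase share was 2.00 times that in light total RNA (1.45 to 2.79), 0.965 times that after glucose starvation (0.713 to 1.31) and 0.930 times that after nitrogen starvation (0.709 to 1.23).

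The 3 polyA shares also stood above that of light total RNA in ribosomal protein genes and in other genes taken apart. In the introns of ribosomal protein genes the branch window held 16.0%, 19.5%, 19.8% and 7.95% of clusters, against 5.19% of nt. There the interval of light total RNA (5.56 to 11.3%) lay above that share of nt but included the window's share of intron T. The intervals of the polyA lists lay higher still. In the other introns the branch window held 28.1%, 26.8%, 29.3% and 16.2%, against 13.6% of nt. The interval of light total RNA (11.4 to 22.4%) included that share of nt. It overlapped that after glucose starvation (19.5 to 35.7%), just met that after nitrogen starvation (22.4 to 37.3%) and lay under that of log phase (23.0 to 33.8%). Among introns with an exact TACTAAC the shares were 22.9%, 23.3%, 24.2% and 10.8%, against 8.55% of nt.

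**Figure D1:**
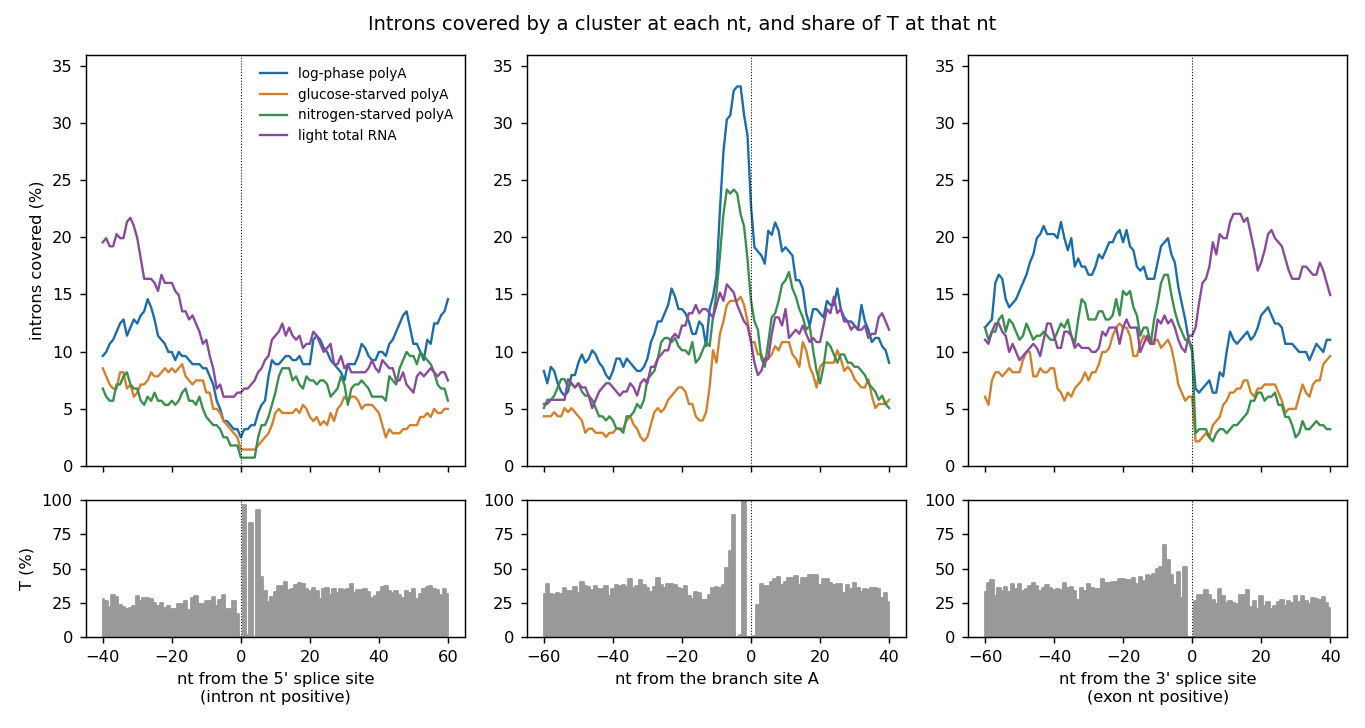
Upper panels: share of introns covered by a cluster (%) at each nt around the 5′ splice site (281 introns), the branch site A (277 introns) and the 3′ splice site (281 introns), 1 line per list. Lower panels: share of introns with T (%) at that nt. The log-phase polyA line reaches 33.2% at 4 nt before the branch A, where T is at 0%, and all 4 lines dip at the 5′ splice site.

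Nt by nt, the plot of covered introns around the 3 landmarks has its highest value on the branch site 7-mer in log-phase polyA (33.2% of introns, 4 nt before the branch A) and after glucose starvation (14.8%, 3 nt before it). After nitrogen starvation (24.2%) the highest value lay just upstream of the 7-mer, 7 nt before the branch A, a position that is T in 50.5% of introns. In light total RNA the highest value lay in the exon, at 22.1% of introns 12 nt past the 3′ splice site. Around the branch site its highest value was 15.9%, also 7 nt before the branch A. In log-phase polyA the 7 nt of the 7-mer were covered in 28.7% of introns on average, against 16.3% for the 20 nt before it and 17.0% for the 20 nt after it. The 7-mer is poorer in T than its flanks, with 27.3% T against 36.4% before and 40.7% after. After nitrogen starvation the 7-mer was covered in 19.4% of introns (13.1% before, 12.3% after) and after glucose starvation in 13.2% (7.51% before, 9.53% after). On average the 7-mer and its flanks were close in light total RNA, at 12.5% on the 7-mer, 13.1% before it and 11.2% after it. The branch A itself was covered in 63 of 277 introns in log-phase polyA, 30 after glucose starvation, 40 after nitrogen starvation and 29 in light total RNA.

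At the 5′ splice site clusters were sparser than over the intron as a whole in the polyA lists when all introns were pooled, and in light total RNA the interval reached the share of nt. The first 20 nt of the intron, with 8.62% of intron nt and 9.91% of intron T, held 5.18% of clusters in log-phase polyA (3.67 to 7.25%), 4.56% after glucose starvation (2.74 to 7.51%), 5.74% after nitrogen starvation (3.89 to 8.40%) and 6.29% in light total RNA (4.51 to 8.70%). Its first 10 nt, with 40.7% T, were covered in 4.88%, 1.99%, 2.28% and 8.11% of introns in that order, and the next 30 nt in 9.42%, 4.86%, 7.16% and 10.0%. By class the picture is less clear. In ribosomal protein introns, where the first 20 nt hold 4.94% of nt, the shares of 3.92%, 3.59%, 4.32% and 5.40% all have intervals that include that value. In the introns of other genes, where they hold 13.3% of nt, the shares were 6.74%, 6.25%, 8.57% and 8.09%, and the interval after nitrogen starvation (4.97 to 14.4%) includes it. The first 6 nt were touched in 12, 4, 7 and 19 of the 281 introns.

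The last 20 nt of the intron, where T makes up 41.3%, held 11.2% of log-phase clusters (8.90 to 14.0%), 12.7% after glucose starvation (9.43 to 16.9%), 13.2% after nitrogen starvation (10.3 to 16.7%) and 7.05% in light total RNA (5.16 to 9.56%), against 7.01% of intron nt and 8.82% of intron T. In ribosomal protein introns, where these 20 nt hold 4.50% of nt, the shares were 10.2%, 13.3%, 13.0% and 5.97%. The intervals of the polyA lists lay above that share of nt, and that of light total RNA (3.93 to 8.95%) included it. In other genes, where they hold 10.2% of nt, the shares of 12.4%, 11.6%, 13.6% and 9.25% all have intervals that include that value. Coverage across the 3′ splice site went in opposite directions. In log-phase polyA it went from 16.8% of introns over the last 20 intron nt to 9.43% over the first 20 exon nt, after glucose starvation from 9.56% to 5.11% and after nitrogen starvation from 13.2% to 3.83%. It went up in light total RNA, from 11.6% to 19.0%. The stretch upstream of the branch window, 70.0% of intron nt, held 56.1%, 52.4% and 51.7% of clusters in the 3 polyA lists and 71.2% in light total RNA.

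**Figure D2:**
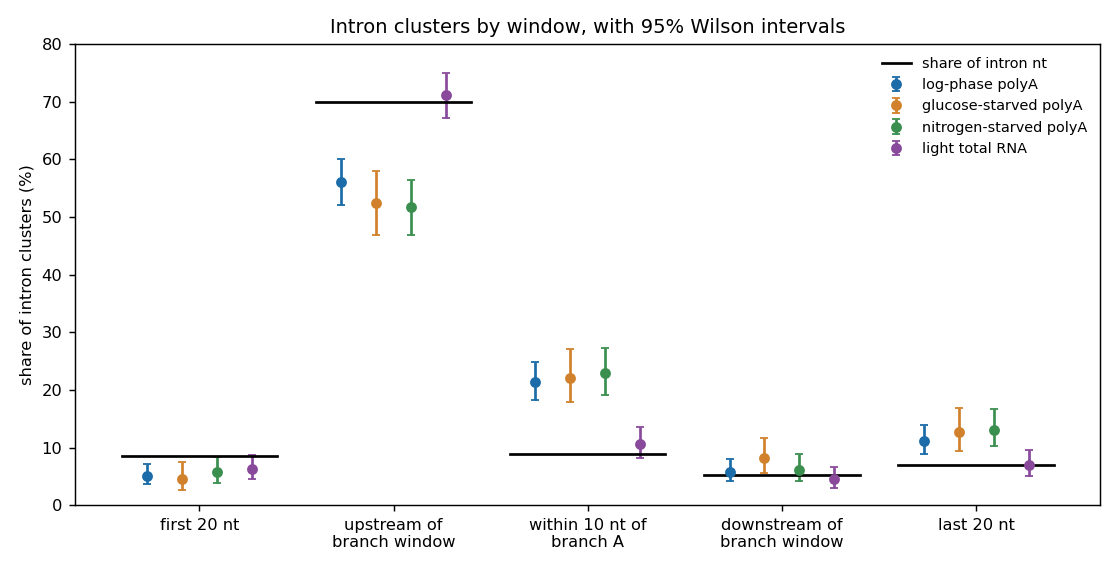
Share of intron clusters (%) in 5 windows of the intron; points are the 4 lists with 95% Wilson intervals and black bars give the window's share of intron nt. In the window within 10 nt of the branch A the 3 polyA points stand at 21.4 to 23.0% and light total RNA at 10.7%, beside a bar at 8.92%.

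The letters under the clusters followed these positions. TACTAAC lay inside 35 of the 599 intron clusters of log-phase polyA (5.84%), 18 after glucose starvation (5.86%), 24 after nitrogen starvation (5.74%) and 16 in light total RNA (3.05%). Over whole lists the shares were 0.131%, 0.108%, 0.110% and 0.0989%. None of the clusters in the CDS of the same genes held TACTAAC, but there was little of it to cover. It occurs in the CDS of 7 of the 271 genes, beside 232 of the 281 introns. Runs of 5 T lay inside 11.5%, 17.3%, 13.4% and 8.00% of intron clusters. GTATGT lay inside 2, 0, 1 and 5. Only the transcribed strand was searched, and these are matches of letters, which differ in their chance of falling inside a cluster with its width. G made up 7.23%, 5.41% and 4.92% of intron cluster bases in the 3 polyA lists and 13.8% in light total RNA, against 17.3% of all intron bases. The same gap between polyA and total stood over whole lists, at 6.81%, 6.88% and 5.63% against 16.4%; what produced it was not tested.

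Pooled over all genes, introns held more clusters per kb than the CDS of the same genes in every list, but in ribosomal protein genes (names starting RPL or RPS) the direction turned in 3 of the 4. In log-phase polyA introns held 9.19 clusters per kb and the CDS 4.82, a ratio of 1.90 (exact 95% interval 1.72 to 2.10). After glucose starvation the densities were 4.71 and 3.21, a ratio of 1.46 (1.28 to 1.67), and after nitrogen starvation 6.41 and 2.33, a ratio of 2.75 (2.41 to 3.13). In light total RNA they were 8.05 and 6.58, a ratio of 1.22 (1.11 to 1.35). In ribosomal protein genes the ratios were 0.695 (0.604 to 0.799) in log phase, 0.580 (0.485 to 0.691) after glucose starvation, 1.73 (1.43 to 2.11) after nitrogen starvation and 0.480 (0.422 to 0.545) in total RNA. In other genes they were 2.93 (2.53 to 3.38), 1.94 (1.56 to 2.39), 2.53 (2.07 to 3.08) and 1.55 (1.31 to 1.83) in that order. Introns are richer in T than the CDS, at 33.8% against 27.0%. Counted per T, the ratios were 1.52, 1.17 and 2.19 in the polyA lists and 0.976 in light total RNA, where the direction thus turned.

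Set against log-phase polyA with all genes pooled, the share of intron clusters moved little while that of their host CDS moved more. Intron clusters made up 0.938 times the log-phase share after glucose starvation (0.815 to 1.08), 1.09 times after nitrogen starvation (0.963 to 1.24) and 1.04 times in light total RNA (0.921 to 1.17). The CDS of the same genes made up 1.22 times (1.11 to 1.34), 0.758 times (0.684 to 0.839) and 1.61 times (1.50 to 1.74). The ratio of intron to CDS clusters was therefore 0.769 times that of log phase after glucose starvation (0.650 to 0.910), 1.44 times after nitrogen starvation (1.22 to 1.70) and 0.642 times in light total RNA (0.557 to 0.741). By class the intron shares were less even. In ribosomal protein genes they were 1.08 (0.896 to 1.29), 1.31 (1.12 to 1.54) and 1.25 (1.08 to 1.46) times those of log phase, in the same order. In other genes they were 0.768 (0.610 to 0.961), 0.822 (0.665 to 1.01) and 0.767 (0.630 to 0.932) times. With clusters of at least 10 nt the values in light total RNA were 1.09 (0.904 to 1.31) and 0.685 (0.537 to 0.873). The glucose value in other genes was then 0.775 (0.580 to 1.03). All these comparisons share the log-phase list.

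Ribosomal protein genes, taken here as those whose names start with RPL or RPS and so without RPP1B and ASC1, which count among the other genes, held between 55.4% and 67.0% of the intron clusters of each list, and their introns and CDS parted after nitrogen starvation. Their introns held 332 clusters in log-phase polyA, 195 after glucose starvation, 278 after nitrogen starvation and 352 in light total RNA. Per kb these were 9.12, 5.36, 7.64 and 9.67, where the shorter introns of other genes held 9.27, 3.89, 4.86 and 6.01. The densities in log phase were thus close. The CDS of the ribosomal protein genes held 521, 367, 175 and 800. The nitrogen-starved list is thus the one with more clusters in these introns than in these CDS. In that list the share of ribosomal protein introns was 1.31 times that in log phase (1.12 to 1.54) and the share of their CDS 0.527 times (0.441 to 0.626), so the ratio of intron to CDS was 2.49 times that of log phase (1.96 to 3.17).

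In the introns of the other genes, which held 267, 112, 140 and 173 clusters beside 629, 399, 381 and 769 in their CDS, the ratio of intron to CDS after nitrogen starvation was 0.866 times that of log phase (0.675 to 1.11), an interval that does not meet that of the ribosomal protein genes. After glucose starvation it was 0.834 times that of log phase in ribosomal protein genes (0.664 to 1.05) and 0.661 times in the others (0.508 to 0.858). In total RNA it was 0.690 times (0.571 to 0.836) and 0.530 times (0.423 to 0.663). Many ribosomal protein genes have a near-identical copy, so the placing of CDS clusters between copies is uncertain; with clusters whose central 25 nt occur once in the genome, the nitrogen value for ribosomal protein genes was 2.28 (1.76 to 2.97). With clusters of at least 10 nt it was 2.47 (1.85 to 3.32), and the introns' share of the list was then 1.09 times that of log phase (0.880 to 1.34).

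**Figure D3:**
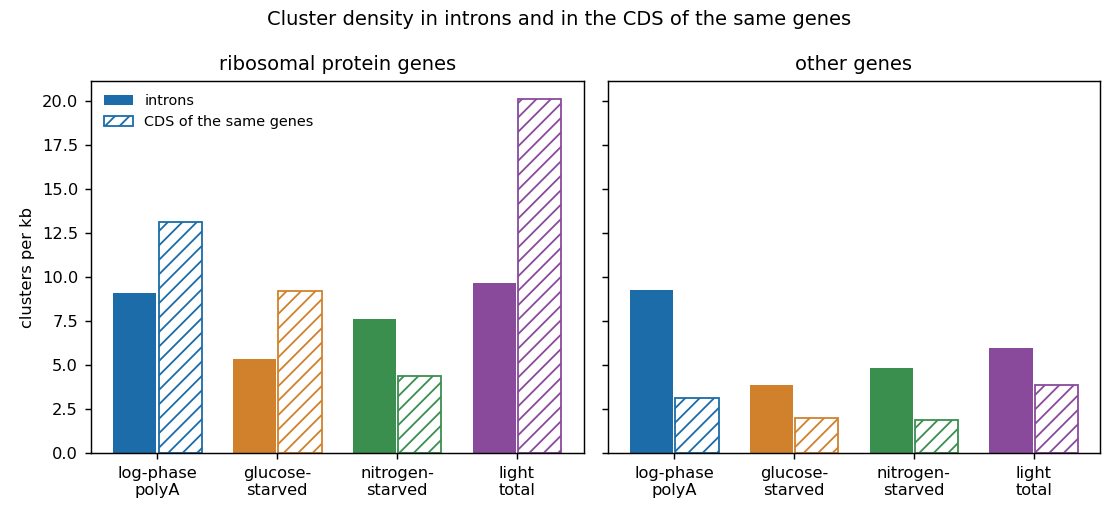
Clusters per kb in introns (filled bars) and in the CDS of the same genes (hatched bars) for ribosomal protein genes and for other genes, by list. In ribosomal protein genes the intron bar exceeds the CDS bar after nitrogen starvation alone among the 4 lists (7.64 against 4.41 per kb); in other genes it does so in all 4.

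Gene by gene, 21 of the 88 ribosomal protein genes with an intron had more intron than CDS clusters in log-phase polyA, 21 after glucose starvation, 55 after nitrogen starvation and 7 in light total RNA. An intron cluster with no CDS cluster was found in 0, 5, 15 and 0 of them. Among the 183 other genes more intron than CDS clusters were found in 28, 22, 27 and 11. Among genes named for the log2 ratios of their introns, RPL6A, for a protein of the large subunit, had 3, 3, 5 and 3 intron clusters beside 10, 5, 1 and 10 in its CDS. RPL35A, also of the large subunit, had 3, 4, 3 and 9 beside 5, 0, 0 and 10. Others named by the same rule differed: RPS14A, of the small subunit, had 4, 1, 1 and 2 intron clusters beside 11, 4, 2 and 12 in its CDS. RPS7A, also of the small subunit, had 4, 0, 2 and 4 beside 12, 5, 4 and 13.

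To compare single introns, covered lengths of each pair of lists were scaled to equal totals and 20 nt were added before the log2 ratio was taken, which understates the ratio of short or little-covered introns. After nitrogen starvation 41 of the 88 ribosomal protein CDS were at least 2-fold lower than in log phase and 0 at least 2-fold higher, with a median log2 ratio of -0.97. Over the CDS of all genes with a cluster in either list, 10.1% were at least 2-fold lower and 4.55% at least 2-fold higher, with a median of -0.11. Of the 88 ribosomal protein introns with a cluster in either list, 2 were at least 2-fold lower and 1 at least 2-fold higher, with a median of 0.15.

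**Figure D4:**
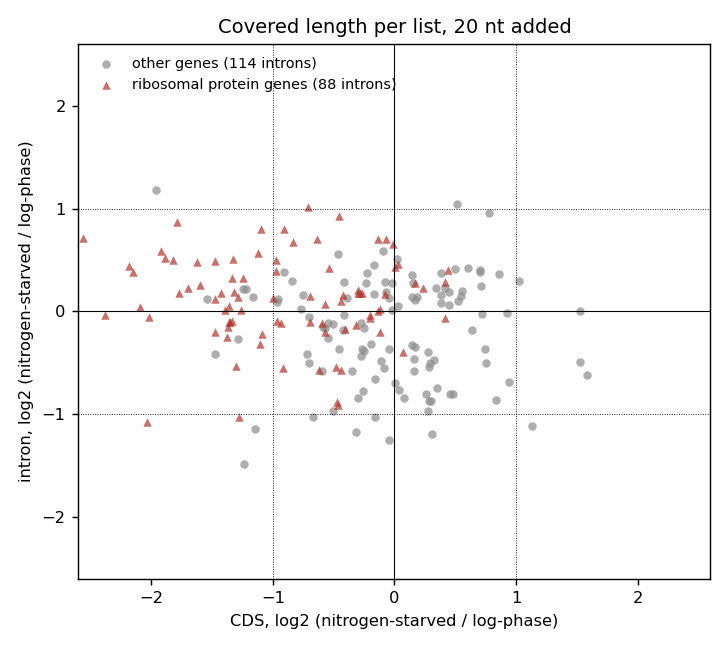
Each point is 1 intron: log2 ratio of covered length, nitrogen-starved over log-phase polyA, of the intron (vertical axis) and of the CDS of its gene (horizontal axis), with 20 nt added; dotted lines mark 2-fold. Red triangles (88 ribosomal protein introns) spread to the left of 0 on the CDS axis, while they lie about 0 on the intron axis. Of these, RPL34B (-3.08), RPL35A (-2.94) and RPS24A (-2.94) lie beyond the left edge of the plot and are not seen. Grey points are 114 introns of other genes.

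Over all introns with a cluster in either list, 3 of 214 were at least 2-fold higher and 10 at least 2-fold lower after nitrogen starvation, 1.40% and 4.67%, both under the 4.55% and 10.1% of all CDS. After glucose starvation 0 of 210 were at least 2-fold higher and 12 lower (5.71%), where 4.85% and 12% of all CDS were. In light total RNA 10 of 221 were at least 2-fold higher (4.52%) and 23 lower (10.4%), where 21.3% and 17.2% of all CDS were. These shares lie under the background in all 6 cases, and introns are shorter than CDS, so that the 20 nt added weigh more on them. Over the same introns the median log2 ratio was -0.19, 0.06 and -0.25 in the 3 comparisons, and over all CDS -0.12, -0.11 and 0.08.

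At the low end after glucose starvation stood ACT1, the actin gene. Its intron held 6 clusters in log-phase polyA, 0 after glucose starvation, 1 after nitrogen starvation and 3 in light total RNA, while its CDS held 13, 17, 17 and 26. Its intron was covered over 74 nt in log phase and 0 nt after glucose starvation, the lowest ratio of all introns with at least 2 clusters in one of the lists. The ribosomal protein genes RPS7A (4, 0, 2 and 4 intron clusters) and RPL43A (4, 0, 4 and 8) followed, with 51 and 45 covered nt in log phase and 0 nt after glucose starvation. RPS14A (4, 1, 1 and 2), also a ribosomal protein gene, went from 65 to 5 nt, a log2 ratio of -1.41. The highest values after glucose starvation, below 2-fold, were 0.80 for RPL34A, 0.80 for RPL35A, 0.73 for NOG2, a GTPase of large subunit assembly, and 0.72 for IMD4, an IMP dehydrogenase.

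After nitrogen starvation the lowest value was -1.48 for YRA1. PSP2 (5, 3, 0 and 4 clusters), OST5 (2, 1, 0 and 1), a subunit of oligosaccharyltransferase, and QCR9 (2, 0, 0 and 4), a subunit of respiratory complex III, came next, with 33, 31 and 30 covered nt in log phase and 0 nt after nitrogen starvation. Among the highest were 1.18 for TEF4, 0.92 for RPS0A and 0.87 for RPL6A. TEF4, the gamma subunit of elongation factor 1B, had 2, 3, 3 and 3 intron clusters and 17, 7, 3 and 20 in its CDS; its intron was covered over 27 nt in log phase and 61 nt after nitrogen starvation.

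In light total RNA the highest value was that of RPS27A, a ribosomal protein gene, with 0, 0, 0 and 6 intron clusters. None of its 351 intron nt was covered in a polyA list and 98 nt were covered in light total RNA, beside 4, 0, 1 and 5 clusters in its CDS. RPS17B (0, 1, 1 and 3 intron clusters) was covered over 0 nt in log phase and 65 nt in light total RNA. YBR090C (1, 1, 1 and 5) and RPL34B (1, 1, 1 and 5) followed, with log2 ratios of 1.81 and 1.79. Lowest were VMA10 (3, 0, 1 and 0), a subunit of the vacuolar ATPase, RIM1 (2, 1, 3 and 0), which binds mitochondrial single-stranded DNA, RPS4A (2, 1, 3 and 0) and COI1 (3, 0, 0 and 0), with 39, 28, 28 and 25 covered nt in log phase and 0 nt in light total RNA.

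YRA1, which encodes an mRNA export adaptor that limits its own expression through its unusually long intron, had the most intron clusters. Its 766-nt intron on chromosome IV, with the branch site GACTAAC, held 16 clusters in log-phase polyA, 3 after glucose starvation, 4 after nitrogen starvation and 18 in light total RNA. These covered 23.8%, 4.70%, 4.31% and 28.7% of it, and the CDS held 3, 1, 1 and 7 clusters. The log-phase and total lists were high and both starved lists low, with log2 ratios to log phase of -1.24 after glucose starvation, -1.48 after nitrogen starvation and 0.07 in total RNA. Overlapping clusters were merged across lists into sites, and those of the intron with clusters of all 4 lists were centred 206, 671 and 757 nt from the 5′ splice site, the last being the T run printed above between branch site and 3′ splice site.

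**Figure D5:**
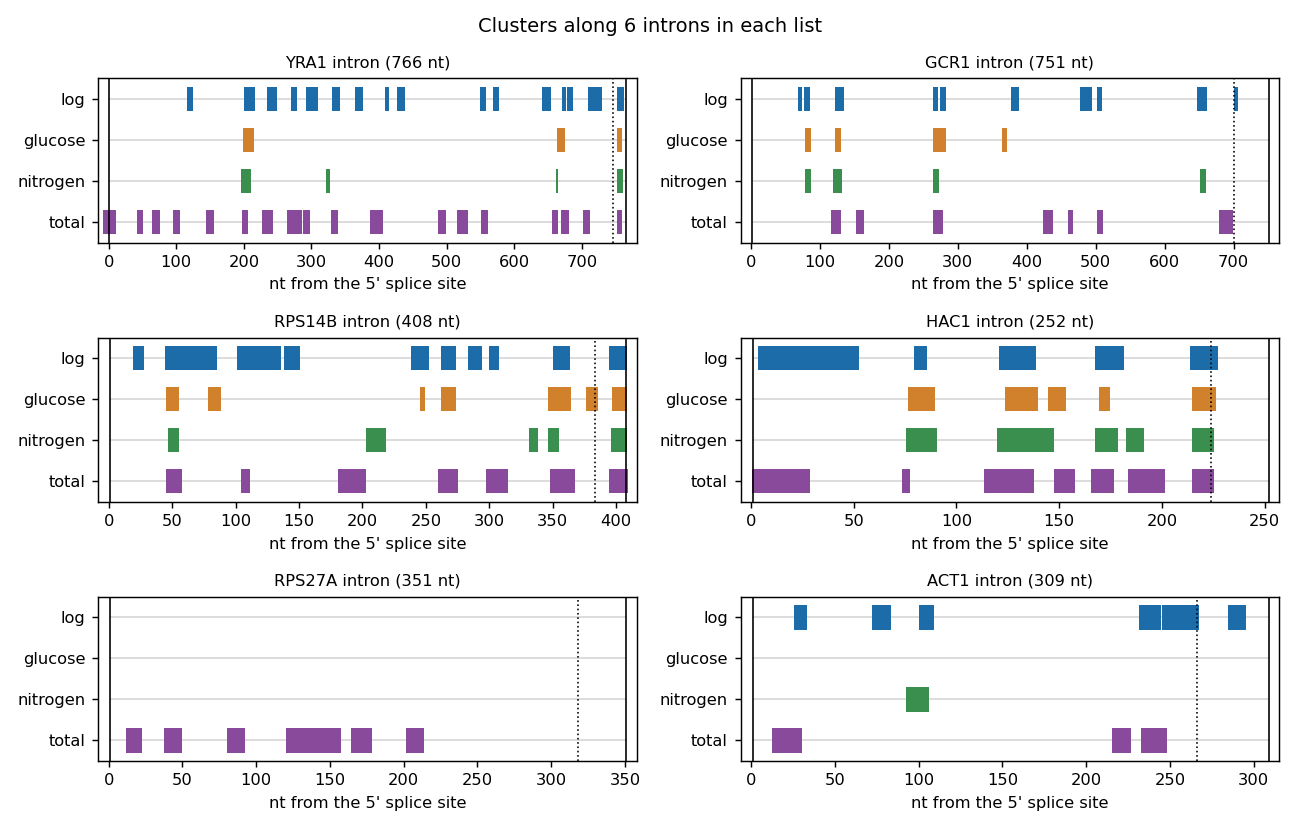
Clusters (coloured blocks) along 6 introns by distance from the 5′ splice site (nt), 1 row per list; solid vertical lines are the splice sites and the dotted line the branch site A (in HAC1 a match of letters in an intron that the spliceosome does not remove). YRA1 has 16 and 18 blocks in the log-phase and total rows against 3 and 4 in the starved rows, and RPS27A has 6 in the total row and none in the others.

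DBP2, a DEAD-box RNA helicase gene that also lowers its own expression through its intron, had the longest intron, 1002 nt on chromosome XIV. It held 6, 7, 7 and 3 clusters over 8.38%, 5.99%, 7.98% and 3.99% of its length, so the 3 polyA lists stood above light total RNA. GCR1, the transcription activator of glycolytic genes, held 10, 4, 4 and 7 clusters in its 751-nt intron on chromosome XVI, with merged sites of all 4 lists centred 125 and 274 nt from the 5′ splice site. ECM33, for a cell wall protein, held 9, 4, 4 and 6 in 330 nt on chromosome II. In GCR1 and ECM33 the log-phase list had the most clusters, and their log2 ratios lay between -0.55 and 0.06.

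HAC1 encodes the transcription factor of the unfolded protein response, and its intron is cut out in the cytoplasm by Ire1 and joined by tRNA ligase without the spliceosome. The 252-nt intron on chromosome VI held 5, 5, 5 and 7 clusters over 40.1%, 21.8%, 29.4% and 42.1% of its length. With 15, 11, 7 and 13 clusters in its CDS, its log2 ratios to log phase were -0.06, 0.12 and -0.11. Its merged sites of all 4 lists were centred 82, 135, 173 and 220 nt from its 5′ end. The whole intron is printed because it is the one removed by another route; capitals mark nt covered in at least 2 lists.
HAC1 (chrVI:75840-76091, + strand): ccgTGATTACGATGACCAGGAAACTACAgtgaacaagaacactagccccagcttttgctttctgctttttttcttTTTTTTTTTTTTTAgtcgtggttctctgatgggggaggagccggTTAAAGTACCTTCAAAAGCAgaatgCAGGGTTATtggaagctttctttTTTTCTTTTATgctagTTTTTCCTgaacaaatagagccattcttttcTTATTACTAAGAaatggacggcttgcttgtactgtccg
The capitals take in a stretch near its 5′ end, the end of a T run, a stretch in the middle of the intron, and TTATTACTAAGA near its 3′ end, which resembles a branch site in letters.

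Ribosomal protein genes supplied 7 of the 12 introns with the most clusters. A ranking by cluster count favours long introns, and theirs had a median of 408.5 nt against 97 nt in other genes. In log-phase polyA the introns of ribosomal protein genes held 9.12 clusters per kb and those of other genes 9.27. RPL28 held 13, 9, 7 and 9 clusters in 511 nt, RPS14B 10, 7, 5 and 7 in 408 nt, RPS9A 7, 5, 5 and 10 in 501 nt, RPS13 8, 2, 4 and 12 in 539 nt, RPS30B 6, 5, 7 and 6 in 411 nt, RPS22B 6, 5, 5 and 7 in 483 nt, and the first intron of RPL7A 8, 6, 4 and 4 in 459 nt. RPS13 was the one of the 7 at least 2-fold lower in any comparison, at -1.19 after glucose starvation. RPS30B was covered over 19.5%, 15.6%, 22.6% and 27.7%, the only one of the 7 whose highest cluster count fell in the nitrogen-starved list. 

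Introns with known regulated splicing formed a list of 13. In it 13 held a cluster in log-phase polyA, 12 after glucose starvation, 13 after nitrogen starvation and 11 in light total RNA. Over all 281 introns the counts were 209, 143, 179 and 169. Among the 130 introns of 150 nt or more they were 117, 101, 111 and 116. Density in the list of 13 was 14.0, 8.17, 11.0 and 15.3 clusters per kb, where that over all introns was 9.19, 4.71, 6.41 and 8.05. YRA1 alone held 16 of the 65 clusters of these 13 introns in log-phase polyA and 18 of the 71 in light total RNA. Rps14 protein represses splicing of RPS14B by binding its pre-mRNA. The RPS14B intron, 408 nt on chromosome X, was covered over 40.9%, 18.4%, 13.0% and 26.5%, and clusters of all 4 lists merged into sites centred 66, 357 and 402 nt from its 5′ splice site. Rpl22 represses splicing of RPL22B, whose intron held 3, 1, 3 and 5 clusters, and RPL22A held 5, 3, 6 and 7.

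Rpl30 represses splicing of its own transcript by binding beside the 5′ splice site. The RPL30 intron, 230 nt on chromosome VII, held 2, 1, 2 and 6 clusters and its CDS 9, 12, 4 and 6. Light total RNA was the only list with a cluster in its first 20 nt, centred 8 nt from the 5′ splice site, and its coverage of 36.1% stood above 13.9%, 5.65% and 8.26% in the polyA lists. RPS9A and RPS9B held 7, 5, 5 and 10 and 6, 3, 8 and 4 clusters. SUS1, for a subunit shared by the SAGA and TREX-2 complexes, has 2 introns. Its first held 1 cluster in each of the 4 lists, at a single site 16 nt upstream of the branch A, and its second 1, 0, 1 and 0. The intron of PTC7, a mitochondrial phosphatase gene whose spliced and unspliced mRNAs are both translated, held 1, 1, 1 and 0.

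Meiotic genes, which growing haploid cells keep low, held a cluster in 5, 1, 4 and 2 of 14 introns. Over all 281 introns the counts were 209, 143, 179 and 169. REC107, needed to start meiotic recombination and spliced with the help of Mer1 in meiosis, had 1 cluster in every list, at a single site centred 24 nt upstream of the branch A of its 80-nt intron on chromosome X. Its CDS held 0, 0, 1 and 1. REC114, a partner of Rec107, had 1, 0, 1 and 1 intron clusters and none in its CDS in any list. MND1, which acts in strand exchange, had 1, 0, 1 and 0. DMC1, the meiotic recombinase, and REC102, of the break-forming complex, each had 1 in log-phase polyA, and MEI4 had 1 after nitrogen starvation. The other 8 introns of the list held none.

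The 8 introns that carry a snoRNA gene held clusters outside it in 8, 8, 7 and 8 cases, with densities of 15.2, 12.1, 10.3 and 10.7 per kb. Of all 281 introns 209, 143, 179 and 169 held a cluster, at 9.19, 4.71, 6.41 and 8.05 per kb. RPS22B, with SNR44, had 6, 5, 5 and 7. EFB1, the alpha subunit of elongation factor 1B, with SNR18, had 6, 4, 3 and 3; RPL7B, second intron, with SNR59, had 6, 3, 5 and 2; RPL7A, second intron, with SNR39, had 4, 2, 4 and 2. NOG2, with SNR191, had 5, 4, 1 and 3, IMD4, with SNR54, 3, 4, 0 and 3, and ASC1, a protein of the small ribosomal subunit, with SNR24, 2, 2, 2 and 1. The remaining host intron is that of TEF4, whose counts are given above with its value after nitrogen starvation. Clusters on the snoRNAs themselves, 26, 27, 23 and 29, were left out.

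The cytoskeleton list had clusters in 11, 6, 10 and 6 of 11 introns; COF1, for the actin-severing protein cofilin, had 5, 2, 2 and 2 and GLC7, the catalytic subunit of protein phosphatase 1, had 2, 2, 2 and 3. Membrane traffic genes had clusters in 11, 7, 8 and 10 of 17 introns, with 2, 1, 1 and 2 in SAR1, the small GTPase of COPII vesicles, and 2, 0, 1 and 2 in SEC14, a phospholipid transfer protein gene. Ubiquitin and proteolysis genes had them in 3, 2, 3 and 3 of 8, with 2, 1, 1 and 3 in UBC4 and 2, 2, 1 and 1 in UBC8, both ubiquitin-conjugating enzymes, and 1, 0, 1 and 0 in UBC12, which conjugates the ubiquitin-like Rub1. Splicing and RNA decay factors had them in 6, 4, 6 and 5 of 10. There MUD1, a protein of the U1 snRNP, had 3, 2, 2 and 1 in 89 nt, with a merged site of all 4 lists 12 nt downstream of the branch A. The 4 introns of translation factor genes had clusters in every list. These lists are small, and over all 281 introns 209, 143, 179 and 169 held a cluster.

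Merging overlapping clusters of the 4 lists gave 944 intron sites, of which 498 were in a single list, 178 in 2, 148 in 3 and 120 in all 4. The branch window held 8.63% of the sites in 1 list, 19.7% of those in 2, 20.3% of those in 3 and 25.8% of those in 4. Clusters of the starved lists mostly recurred in log phase: 82.3% of nitrogen-starved intron clusters (78.3 to 85.7%) and 81.4% of glucose-starved ones (76.7 to 85.4%) overlapped a log-phase cluster by at least 1 nt. For CDS clusters of the same genes the shares were 75.0% and 66.2%. In the other direction 56.9% of log-phase intron clusters overlapped a nitrogen-starved one and 41.2% a glucose-starved one, with 36.6% and 43.5% in the CDS. Between light total RNA and log-phase polyA the shares were lower, at 42.9% of total RNA intron clusters and 39.2% of log-phase ones, with 39.6% and 52.0% in the CDS. The lists differ in size, which bears on each of these shares.

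Some clusters ran across a splice site in the genome's own sequence, joining intron to exon. Such clusters crossed a 5′ splice site 6, 4, 2 and 15 times and a 3′ splice site 15, 4, 7 and 27 times. They lay at 20, 7, 9 and 40 introns. Ribosomal protein genes such as RPS24B and RPL23B were among them in log phase and after nitrogen starvation, HAC1 after glucose starvation, and RPL30, RPS14B and YRA1 in light total RNA.

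No cluster had its midpoint in 57 of the introns in any list. Their median length was 90 nt, none belonged to a ribosomal protein gene, and in 10 of them every 25-mer occurred more than once in the genome, as it did in 11 of all 281. They include both introns of HMRA1, a silent mating-type gene, both introns of HOP2 and the introns of the meiotic genes PCH2, SAE3 and SPO22. They also include introns whose CDS was well covered, such as SEC27, a coat protein subunit of COPI vesicles, with 30 CDS clusters over the 4 lists, PMI40, a mannose-6-phosphate isomerase, with 16, and BET4, a subunit of a Rab prenyltransferase, with 15. These genes were chosen after their values were seen. IWR1 and ATG44 count among the 57, though a cluster of light total RNA ran across a splice site of each. The lists give no read depth, so a missing cluster says only that none was called with its midpoint there.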

How the data were processed

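The processed files were lists of gPAR-CLIP clusters. Reads were aligned with Bowtie 0.12.7 to build R64, per the submitters' processing notes; how clusters were called, with which thresholds, and how reads matching several places were handled were matters not given in the sources used here. Per the labels, 1 list was named for both replicates of each group, so the authors pooled them. Each line, as deposited, gave the start and end of a cluster, its strand and a score that was 0 throughout and was not used. Starts were read as counted from 0, since only then did the share of T at the first covered base match between strands. No list gave counts or coverage, so read depth is unknown and the size of a list stands in for it.

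Introns of at least 40 nt between CDS blocks came from the RefSeq annotation of R64 (47 gaps of 1 nt, programmed frameshifts or the like, were not counted), with coordinates 1-based. The branch site was the last TACTAAC, or else the last 7-mer with at most 1 mismatch and the A kept, at least 8 nt from the 3′ end. Clusters were placed by their midpoint. Shares have Wilson intervals and ratios exact conditional binomial intervals, at 95%, for counting error only. Log2 ratios used covered nt scaled to the mean total of both lists, with 20 nt added, and were read against 2-fold beside the CDS of all genes; with 1 list a group there was no test. Alternatives were the added nt (5 or 50), the branch window (5 or 20 nt), clusters of at least 10 nt and covered nt. Further ones were density per T, other denominators and a minimum of 2 clusters. Unique central 25-mers, introns without another gene, and clusters of at least 10 nt within each class of gene were chosen after seeing the data. Introns named are the 12 with the most clusters, the 4 under 150 nt with the largest covered length, the 4 highest and 4 lowest in each comparison among those with at least 2 clusters in one of its lists, those of the regulated and meiotic lists and those with a snoRNA that held a cluster, and up to 3 of each other list (cytoskeleton, membrane traffic, ubiquitin and proteolysis, splicing and RNA decay, translation factors). One intron that the rule names is not reported here. The intron group, the gene lists and the rules were chosen with earlier results of these data known. Scripts used Python 3.11.15, numpy 2.4.6 and scipy 1.17.1 and were tested on simulated clusters.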

Additional observations from a re-analysis of the deposited data

How the results depend on the processing

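Of 158 alternative values for 25 results, 118 stayed within the interval of the value reported (or within 1.5 times a count), 39 moved further and 1 turned to the other side of equal density. The ratio of intron to CDS density, in the order log phase, glucose, nitrogen and total, was 1.56, 1.17, 2.38 and 1.06 with covered nt in place of cluster counts. Per T it was 1.52, 1.17, 2.19 and 0.976, the value that turned. Clusters of at least 10 nt gave 1.66, 1.24 and 2.33 in the polyA lists, and unique central 25-mers, which remove CDS clusters of gene copies but not their length, gave 2.20, 1.68 and, in light total RNA, 1.46. The branch share was 11.7%, 10.4%, 9.81% and 4.95% within 5 nt of the branch A, beside 4.67% of intron nt, and 30.6%, 33.9%, 35.2% and 21.1% within 20 nt, beside 17.1%; clusters of at least 10 nt gave 25.7% in log phase. At least 2 clusters were found in 74 introns after glucose starvation and 98 after nitrogen starvation. Taken among clusters of genes with an intron, the share of introns relative to log phase was 1.25 after nitrogen starvation and 0.732 in light total RNA. As a share of the whole list, with clusters of at least 10 nt alone, intron clusters were 0.961 and 0.916 times log phase. Both values lie on the other side of no difference from the 1.09 and 1.04 reported, whose intervals include it. The counts of introns at least 2-fold apart depend on the nt added: with 5 nt, 4 were higher and 82 lower after glucose starvation, 12 and 44 after nitrogen starvation and 28 and 76 in light total RNA; with 50 nt, 1 was lower after glucose starvation, 0 higher and 1 lower after nitrogen starvation, and 6 higher and 0 lower in light total RNA. No paired analysis was possible because the authors pooled the replicates of each group into 1 list; for the same reason no replicate could be left out.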
